A study of Homo sapiens with 24 samples.

Results

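The second 3 h of transcriptional arrest in control HepG2 cells was followed in 4 libraries of a series of 24, 2 collected 3 h after actinomycin D was added and 2 collected after 6 h. The 4 libraries were chosen by their labels alone. HepG2 is a human hepatocellular carcinoma line that keeps much of the liver's secretory programme. All control cells, including the 2 libraries at 0 h used below for comparison, had been transfected with the AllStars negative control siRNA. They received actinomycin D at 5 µg/ml 48 h after they were re-seeded. The series also holds cells depleted of IGF2BP1, IGF2BP2 or IGF2BP3, mRNA-binding proteins, at the same times, and METTL1-depleted cells were not analysed here. The 12 knockdown libraries at 3 h and 6 h serve as a separate set of cells in which the same interval was measured. The series was made to measure how long mRNAs last. Plates of one condition were split from the same transfected cells, and the labels do not say which replicates came from separate transfections, so the p-values describe the spread between these libraries.

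Actinomycin D binds DNA and blocks RNA synthesis, so that RNA already present is lost without being replaced. Most cytoplasmic mRNAs lose their poly(A) tail first and are then decapped and digested, and short-lived mRNAs often encode regulators that a cell must be able to switch off quickly. In liver cells, mRNAs of secreted plasma proteins and of the ribosome are known for long lives. Because poly(A) RNA was selected before sequencing, a lost tail and a digested transcript cannot be told apart here.

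The siControl libraries held 40733196 to 60121617 gene reads at 3 h and 6 h and 67981 to 119088 reads of the ERCC spike-in, a set of synthetic RNAs added at 0.02 µl per µg of total RNA. Levels below are reads per 1000 ERCC reads in the same library, and they are not divided by transcript length, so they can be compared between times for one gene but not between genes. As the spike-in was added per µg of total RNA, levels are relative to total RNA. Changes in cell number, in total RNA per cell or in recovery before that step are not seen. All 10 hepatocyte markers, among them ALB, AFP and TTR, were detected. The 10 markers of blood, stromal, endothelial, epithelial and neural crest cells summed to at most 2.23 CPM, reads scaled to a common library total, at 3 h and 1.41 at 6 h, and PTPRC, DCN, KRT5 and SOX10 were at 0 in all 6 siControl libraries.

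Polyadenylated RNA went on falling relative to the spike-in. The 3 h libraries held 599 and 597 gene reads per ERCC read and the 6 h libraries 505 and 471. Both 6 h values lay below both 3 h values, and 81.6% of the 3 h ratio was left at 6 h (78.5% to 84.6% over the 4 pairings of libraries). With 2 libraries against 2 the exact two-sided permutation p was 0.333, the smallest these libraries allow. The 6 h libraries differed from each other by 0.10 on the log2 scale and the 3 h libraries by 0.0059, so a change near 0.10 is within the spread of the scale itself.

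Across the 13136 genes tested, 8522 fell from 3 h to 6 h at an adjusted p under 0.05, which is 64.9%. Only 20 rose (0.152%) and 4594 were not called. The median gene changed by -0.42 on the log2 scale (quartiles -0.70 and -0.22), with 74.8% of its 3 h level left. Of the genes that fell, 3634 did so by less than 0.5, 3421 by 0.5 to 1 and 1467 by at least 1, of which 99 by at least 2. Both 6 h levels lay below both 3 h levels for 10999 genes (83.7%). Expressed as a half-life, which assumes exponential loss from 3 h to 6 h, the median was 6.86 h over 12546 genes (quartiles 4.18 and 12.3), and 1524 genes had one under 3 h.

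The spike-in sets where no change lies. With TMM scaling, which centres the bulk of genes on no change, the median moved by 0.41 to about 0, and 3280 genes (25%) fell while 2904 (22.1%) rose. Counts of class members that fell are to be read against the 64.9% of all genes, and many become smaller with TMM scaling. The class values below are on the spike-in scale and are to be read against its median of -0.42. A class whose median lies near 0 on this scale lies above the bulk of mRNAs.

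The largest falls included regulators of transcription, RNA processing and signalling. CEBPA, a transcription factor that sets hepatocyte identity, stood at 12.7 and 11.6 at 3 h and at 2.02 and 1.64 at 6 h. It fell by 2.73 ± 0.12 (SE of the fit, adjusted p = 2.06e-119), leaving 15.0% of the 3 h level and giving a half-life of 1.10 h. CEBPA lies at chr19:33299934-33302534 (GRCh38, minus strand) and its canonical transcript has 1 exon.

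DCLRE1B, the telomere-protecting nuclease Apollo, went from 2.31 and 2.71 to 0.294 and 0.467, a log2 change of -2.73 ± 0.21. NXT1, a partner of the mRNA export receptor, went from 3.12 and 3.11 to 0.361 and 0.599 (-2.70 ± 0.18). POP7, a protein subunit of RNase P and RNase MRP, went from 11.1 and 10.9 to 1.999 and 1.39 (-2.69 ± 0.12). The 8 largest falls were taken only from genes whose 3 h and 6 h libraries did not overlap. Over all genes tested, both 6 h levels lay below both 3 h levels in 83.7%. MAP1S, a microtubule-associated protein, had the widest replicate spread of the 8 largest falls, with 3.07 and 1.87 at 3 h against 0.554 and 0.264 at 6 h (-2.57 ± 0.20). TMEM115, a Golgi membrane protein, went from 7.03 and 7.92 to 1.31 and 1.25 (-2.55 ± 0.14). TNFRSF1A, the main receptor for tumour necrosis factor, went from 10.5 and 9.28 to 1.64 and 1.80 (-2.52 ± 0.12). CLP1, an RNA kinase of the cleavage and tRNA splicing machineries, went from 2.53 and 2.22 to 0.428 and 0.396 (-2.52 ± 0.20). Each of the 8 fell in every alternative that was run.

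**Figure D1:**
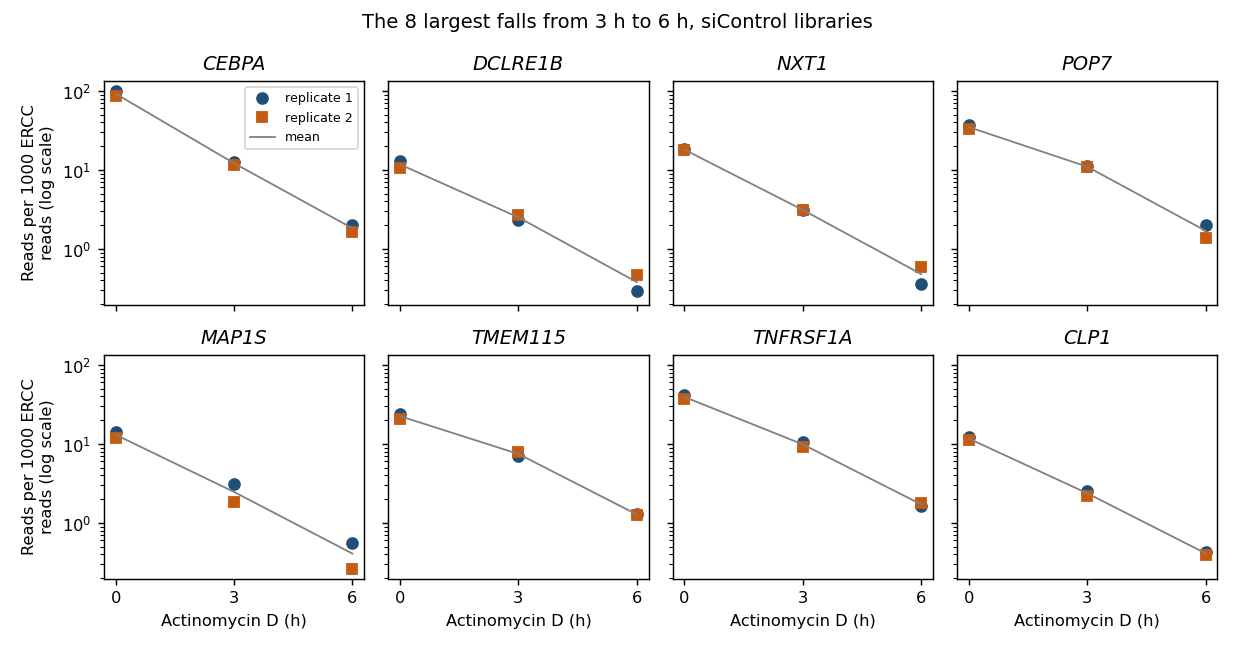
Levels of the 8 genes with the largest falls from 3 h to 6 h in the 6 siControl libraries, in reads per 1000 ERCC reads on a log axis against hours of actinomycin D. Points are single libraries and lines join the means of 2. CEBPA goes from 12.7 and 11.6 at 3 h to 2.02 and 1.64 at 6 h. Only genes whose 3 h and 6 h points do not overlap were eligible.

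In all, 40 classes were defined by gene lists, symbol patterns or annotation. They spread from a median of -1.07 for the mRNAs encoded in mitochondria to -0.08 for the glycolytic enzymes. Of these classes, 23 had a median below that of all genes tested.

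**Figure D2:**
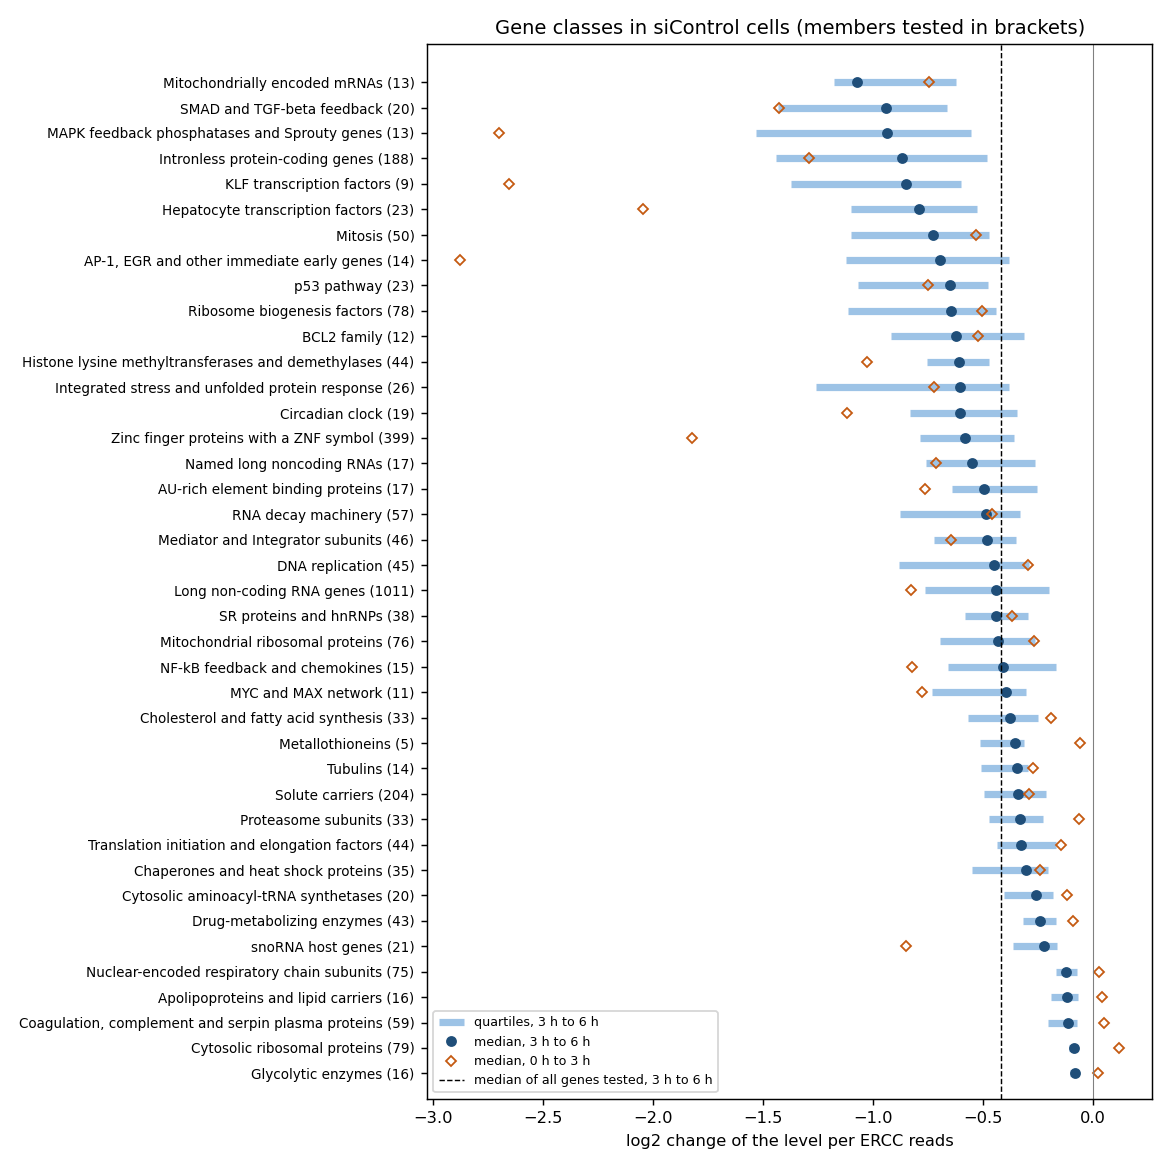
Median log2 change of each gene class from 3 h to 6 h (filled circles, with bars from the first to the third quartile of its members) and from 0 h to 3 h (open diamonds) on the spike-in scale, with the number of members tested in brackets. The dashed line is the 3 h to 6 h median of all 13136 genes tested, -0.42. The mitochondrially encoded mRNAs lie farthest to its left, at -1.07, and the glycolytic enzymes farthest to its right, at -0.08.

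Most classes of transcription factors and signalling inhibitors had a median below that of all genes, while the MYC and NF-kB lists lay near it. Hepatocyte transcription factors fell in 23 of 23 members tested, with a median of -0.79 and 57.1% left. Below CEBPA in that class came GATA4, a zinc finger factor of heart and liver, at 7.502 and 7.09 at 3 h and 1.97 and 1.99 at 6 h (-1.88 ± 0.13, adjusted p = 7.40e-48). The smallest changes were those of HNF4A, the nuclear receptor at the centre of the hepatocyte network, and of PPARA, which governs fatty acid oxidation. HNF4A had 151 and 152 at 3 h and 141 and 122 at 6 h. Its change of -0.21 ± 0.08 passed the test (adjusted p = 0.0212) but did not without either 3 h library or without 6 h replicate 2 (adjusted p 0.072 to 0.402). PPARA fell by 0.33 ± 0.10 (adjusted p = 0.00132).

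SMAD proteins with the feedback genes of TGF-beta and BMP signalling had 18 of 20 members that fell and a median of -0.94. ID2 and ID3 encode inhibitors of basic helix-loop-helix factors. ID2 went from 4.27 and 4.67 to 0.974 and 1.08, a fall of 2.12 ± 0.14, and ID3 fell by 1.80 ± 0.17.

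Inhibitors of MAP kinases fell in 11 of 13 members (median -0.94). DUSP8, a phosphatase of stress-activated kinases, went from 2.22 and 2.26 to 0.680 and 0.625 (-1.78 ± 0.22). DUSP5, an ERK phosphatase, changed by -2.60 ± 0.62 but was near the limit of detection at 6 h, with 0.0420 and 0.0352. DUSP6, which also acts on ERK, was at 0.662 and 0.591 at 3 h and 0.621 and 0.335 at 6 h and was not called (-0.38 ± 0.23). Without 6 h replicate 1 it fell by 0.90 (adjusted p = 0.00635), and in the knockdowns it fell by 0.61 (adjusted p = 0.000444). It had gone from a mean of 33.8 at 0 h to 1.86% of that by 3 h. SPRY1, a Sprouty inhibitor of receptor signalling, fell by 0.48 ± 0.18 (adjusted p = 0.0116), a call lost without 3 h replicate 2 or 6 h replicate 2.

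Among the AP-1, EGR and other immediate early genes, 8 of 14 fell, close to the share over all genes. JUND, a subunit of AP-1, went from 30.4 and 29.2 to 9.83 and 7.72 (-1.76 ± 0.10), and ATF3 fell by 1.49 ± 0.31. IER3, a survival gene induced by growth factors, stood at 0.132 and 0.130 at 3 h and 0.126 and 0.123 at 6 h, 1.55% of its 0 h level, and was not called. FOS had at most 0.0504 in any of the 4 libraries, too few reads to show a change in either direction, and was not called, while in the knockdowns it changed by -2.79 (adjusted p = 0.0151).

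KLF factors fell in 7 of 9 members (median -0.85), with KLF13 at -1.55 ± 0.18, KLF9 at -1.40 ± 0.24 and KLF6 at -0.42 ± 0.11. Nearly all ZNF-named zinc finger genes had fallen early (387 of 399 from 0 h to 3 h, where the share over all genes was 61.3%, with 0.906% rising). From 3 h to 6 h, 247 of 399 fell (61.9%, against 64.9% of all genes), with a median of -0.58. ZNF672 had the largest of these falls, from 5.00 and 4.88 to 1.43 and 0.889 (-2.09 ± 0.15). In the MYC and MAX network 9 of 11 fell with a median of -0.40, near that of all genes, led by MAX, the shared dimer partner, at -1.12 ± 0.13 and MGA, a MAX-binding repressor, at -0.99 ± 0.09. Without 6 h replicate 2 the network's count was 5.

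The NF-kB feedback and chemokine list fell in 9 of 15 members, close to the share over all genes, with a median of -0.41. NFKBIE, an inhibitor that holds NF-kB in the cytoplasm, went from 1.84 and 1.65 to 0.596 and 0.414 (-1.78 ± 0.21), and RELB, an NF-kB subunit, fell by 1.05 ± 0.23. CCL20, a chemokine, had 36.1 and 33.9 at 3 h and 39.4 and 36.6 at 6 h. Its change of 0.12 ± 0.09 was not called.

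In the p53 pathway 22 of 23 fell (median -0.65), among them SESN2, an inhibitor of mTORC1, at -1.74 ± 0.21 and BTG2, an antiproliferative partner of the CCR4-NOT deadenylase, at -1.57 ± 0.17. The BCL2 family fell in 9 of 12. BMF, a death-promoting member, fell by 1.24 ± 0.28. BBC3, another, changed by -1.40 ± 0.41, with 0.206 and 0.461 at 3 h, and its call was lost without 3 h replicate 2 (-0.67, adjusted p = 0.315). Clock genes fell in 17 of 19 (median -0.60), with TEF at -0.89 ± 0.19 and NFIL3 at -0.88 ± 0.14. Only 4 clock genes fell with TMM scaling (21.1%, against 25% of all genes) and 10 with library-size scaling.

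Chromatin and transcription machinery fell in most members. Histone lysine methyltransferases and demethylases fell in 43 of 44 members (median -0.61, 65.5% left). SUV39H1, which methylates histone H3 in heterochromatin, went from 4.69 and 3.91 to 1.55 and 1.42 (-1.53 ± 0.16), and KDM5B, an H3K4 demethylase, from 11.7 and 11.9 to 4.91 and 3.86 (-1.42 ± 0.11). Mediator and Integrator subunits fell in 40 of 46 (median -0.48), and in 13 with TMM scaling (28.3%, against 25% of all genes). MED18 changed by -2.59 ± 0.38 and INTS5 by -1.76 ± 0.26, both at low levels. CCNC, the cyclin of the Mediator kinase module, was at 53.4 and 55.1 at 3 h and 52.7 and 52.8 at 6 h and was not called.

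Factors that process, decay or bind RNA were spread widely. The RNA decay machinery fell in 50 of 57 (median -0.49). Its lowest members were BTG2, given above, and EXOSC9, an exosome subunit, at 33.0 and 29.9 against 11.9 and 11.4 (-1.43 ± 0.10). LSM4, of the LSM rings that bind the 3′ ends of deadenylated mRNA and U6 RNA, was not called (-0.10 ± 0.09). AU-rich element binding proteins fell in 15 of 17. ZFP36L2, which recruits deadenylases, fell by 1.30 ± 0.12. ZFP36, the close relative of ZFP36L2, had reached 3.42% of its 0 h level at 3 h and then stood at 0.250 and 0.331 at 3 h and 0.269 and 0.335 at 6 h, not called.

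SR proteins and hnRNPs fell in 35 of 38 (median -0.44), with CLK3, a kinase of SR proteins, at -1.41 ± 0.12. Of the 38, 12 fell and 13 rose with TMM scaling. HNRNPF, which binds G-rich RNA, went from 163 and 163 to 69.0 and 64.5 (-1.29 ± 0.08, adjusted p = 6.97e-51), whereas HNRNPA2B1 had 908 and 912 at 3 h and 873 and 826 at 6 h (-0.10 ± 0.08, not called).

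Ribosome biogenesis factors and the proteins of the ribosome itself lay on opposite sides of the median of all genes. Nucleolar ribosome biogenesis factors fell in 73 of 78 members (median -0.65, 63.9% left). IMP3, a small subunit processome protein, went from 11.7 and 10.5 to 2.41 and 3.06 (-2.02 ± 0.12), and MPHOSPH10, its partner in the same complex, from 53.4 and 52.1 to 14.1 and 12.9 (-1.96 ± 0.09). Cytosolic ribosomal proteins had a median of -0.09 with 94.1% left, and 3 of 79 fell. These were RPL4 at -0.22 ± 0.08, RPL7A at -0.18 ± 0.08 and RPL36A at -0.94 ± 0.36. RPL36A had at most 0.647, a level at which reads shared with its many pseudogenes and a read-through neighbour make it uncertain. Without 3 h replicate 1 or 6 h replicate 2 the count was 0 of 79, without 3 h replicate 2 it was 1 and without 6 h replicate 1 it was 9. With TMM scaling 76 of the 79 rose, against 22.1% of all genes.

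**Figure D3:**
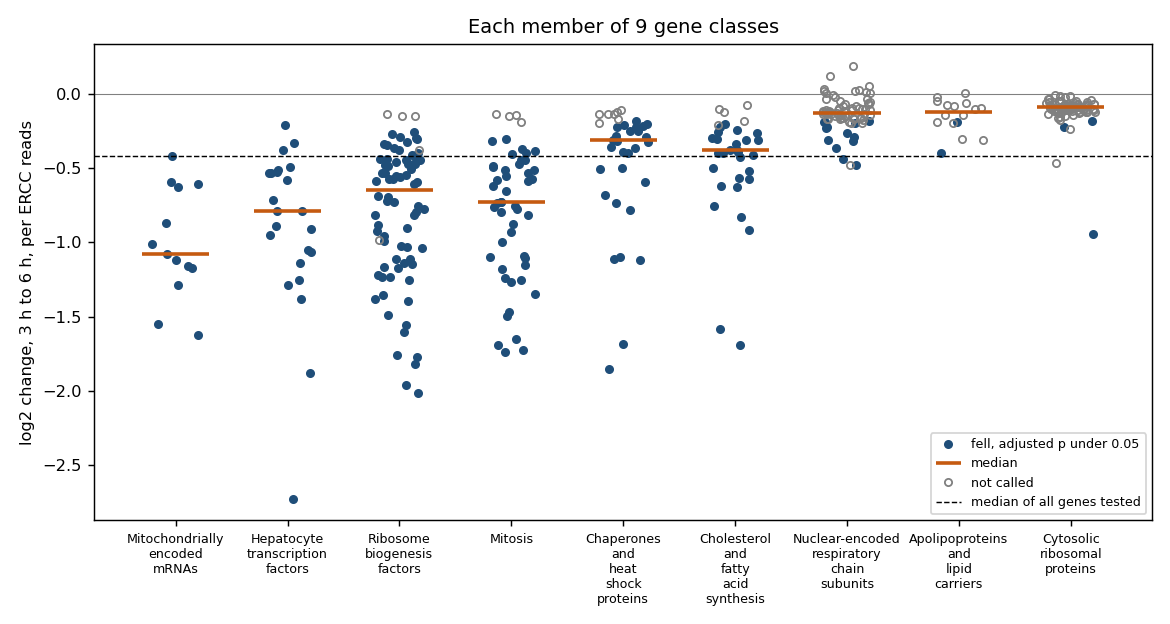
Log2 change from 3 h to 6 h on the spike-in scale for each tested member of 9 gene classes. Filled circles are members that fell, open grey circles members that were not called, the orange line is the class median and the dashed line the median of all genes tested. Ribosome biogenesis factors reach down to -2.02, while cytosolic ribosomal proteins other than RPL36A and 1 uncalled member sit close to 0.

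Translation and protein turnover lost less than the median gene by class median, but not by the share of members that fell. That share was 70.5% for translation factors, 80% for aminoacyl-tRNA synthetases and 81.8% for proteasome subunits, against 64.9% of all genes. Translation factors fell in 31 of 44 (median -0.33). EIF4E, the cap-binding factor, stood out at 33.6 and 31.98 against 14.6 and 13.9 (-1.20 ± 0.09), and EIF2B4, of the eIF2 exchange factor, fell by 0.99 ± 0.09. PABPC1, the main cytoplasmic poly(A)-binding protein, was at 1083 and 1089 at 3 h and 1067 and 1038 at 6 h and was not called. Aminoacyl-tRNA synthetases fell in 16 of 20 (median -0.26), most of all RARS1 at -0.91 ± 0.09, and in 8 of 20 without 6 h replicate 2. Proteasome subunits fell in 27 of 33 (median -0.33), led by the ubiquitin receptor ADRM1 at -0.98 ± 0.08 and PSMD6 at -0.76 ± 0.09, with SEM1 not called (-0.05 ± 0.09).

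Chaperones fell in 28 of 35 with a median of only -0.30. The members differed widely. HSPA8, the constitutive HSP70, went from 1243 and 1218 to 401 and 366, a fall of 1.68 ± 0.08 that left 31.1% (adjusted p = 7.92e-92). DNAJB1, its HSP40 partner, went from 4.91 and 4.39 to 1.37 and 1.19 (-1.86 ± 0.13). HSP90B1, the HSP90 of the endoplasmic reticulum, was at 1438 and 1403 at 3 h and 1357 and 1291 at 6 h and was not called (-0.10 ± 0.08).

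Genes of the integrated stress and unfolded protein responses fell in 24 of 26 members (median -0.60). XBP1, the transcription factor of the unfolded protein response, went from 110 and 107 to 24.9 and 22.3, a fall of 2.20 ± 0.09 with 21.7% left. TRIB3, a pseudokinase that restrains ATF4, went from 17.3 and 15.99 to 4.11 and 2.74 (-2.27 ± 0.11). ATF4 itself was at 198 and 194 at 3 h and 182 and 163 at 6 h. Its change of -0.18 ± 0.08 just passed (adjusted p = 0.0418), and the call was lost without either 3 h library or without 6 h replicate 2.

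Among cell division genes, the mitosis class had a median well below that of all genes. DNA replication genes lay near the median of all genes, -0.42, and tubulins above it. Mitosis genes fell in 46 of 50 (median -0.73, 60.4% left). NDC80, of the outer kinetochore, went from 11.3 and 10.8 to 3.48 and 3.14 (-1.74 ± 0.12), and CDC25A, a phosphatase that activates cyclin-dependent kinases, from 17.8 and 18.6 to 5.70 and 5.29 (-1.73 ± 0.11). MAD2L1, a spindle checkpoint protein, was not called (-0.13 ± 0.09). DNA replication genes fell in 39 of 45 with a median of -0.45. FEN1, the flap endonuclease of lagging strands, went from 36.2 and 35.6 to 8.87 and 9.46 (-1.97 ± 0.10), and GINS3, of the replicative helicase, fell by 1.86 ± 0.14. RPA3, the smallest subunit of replication protein A, was at 18.7 and 17.8 at 3 h and 17.7 and 18.2 at 6 h and was not called. Tubulins fell in 12 of 14 (median -0.34) and in 4 without 6 h replicate 2. TUBA4A changed most, by -0.93 ± 0.33 at levels of at most 1.13, a call lost without 3 h replicate 2 or 6 h replicate 2 (adjusted p 0.145 and 0.0644), and TUBB4B followed at -0.69 ± 0.08. TUBA1B changed by -0.23 ± 0.08, a call lost without 3 h replicate 1 or 6 h replicate 2 (adjusted p 0.0735 and 0.195).

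Secreted liver proteins and glycolytic enzymes had medians near 0. Apolipoproteins and lipid carriers fell in 2 of 16 (median -0.12, 92.1% left). APOB, the scaffold of very low density lipoprotein and the gene with the most reads, was at 23448 and 23177 at 3 h and 20952 and 19973 at 6 h (-0.19 ± 0.07, adjusted p = 0.0205), a call lost without either 3 h library or 6 h replicate 2. LCAT, which esterifies plasma cholesterol, changed by -0.40 ± 0.11, a call lost without 6 h replicate 2 (-0.23, adjusted p = 0.126). APOA2, a high density lipoprotein protein, had 671 and 655 at 3 h and 684 and 627 at 6 h, overlapping and not called (-0.02 ± 0.08). The class count was 0 without 6 h replicate 2, 1 without either 3 h library and 5 without 6 h replicate 1.

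Coagulation, complement and serpin plasma proteins fell in 8 of 59 (median -0.11), C4BPB and MASP1 of the complement system being the largest at -0.52 ± 0.10 and -0.54 ± 0.22. The count was 1 without 6 h replicate 2, 2 without 3 h replicate 1 and 3 without 3 h replicate 2, and MASP1 was not called without any 1 of the 4 libraries. Glycolytic enzymes fell in 2 of 16. These were HK2, the hexokinase of tumour cells, at 69.0 and 66.8 against 43.5 and 38.6 (-0.73 ± 0.09), and LDHA, which makes lactate, at 899 and 892 against 675 and 616 (-0.47 ± 0.08). The class quartiles were -0.11 and -0.06, and 4 members fell without 6 h replicate 1. Drug-metabolizing enzymes fell in 22 of 43 (median -0.24), with CYP8B1, a bile acid hydroxylase of 1 exon, lowest at -1.31 ± 0.39. Metallothioneins fell in 3 of 5 (60%), MT1F by 0.79 ± 0.23. Solute carriers fell in 135 of 204 (median -0.34), a share of 66.2% that is near the 64.9% of all genes. Without 6 h replicate 2 the counts were 9 drug-metabolizing enzymes, 1 metallothionein and 76 solute carriers, and for drug-metabolizing enzymes they were 14 and 8 without 3 h replicate 1 and 2.

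Enzymes of cholesterol and fatty acid synthesis fell in 28 of 33 (median -0.38) and showed a wide split. SQLE, squalene epoxidase, went from 80.3 and 77.0 to 26.2 and 22.4 (-1.69 ± 0.09, 30.9% left), and HSD17B7, a later enzyme of the sterol branch, fell by 1.58 ± 0.14. SCD, the fatty acid desaturase, was at 1358 and 1353 at 3 h and 1339 and 1241 at 6 h, not called.

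Mitochondrial function was split by genome. All 13 mRNAs encoded in mitochondrial DNA fell, with the lowest class median of -1.07 and 47.5% left. MT-ND2 and MT-CYB lost most, from 545 and 525 to 181 and 166 (-1.62 ± 0.08) and from 480 and 459 to 167 and 154 (-1.55 ± 0.08). MT-CO1 and MT-ND4 lost least, MT-CO1 going from 6558 and 6464 to 5036 and 4732 (-0.41 ± 0.08) and MT-ND4 changing by -0.59 ± 0.08. With TMM scaling 12 of the 13 fell, MT-CO1 being the exception. The share of gene reads from mitochondrial DNA was 3.91% and 3.88% at 3 h and 2.97% and 2.99% at 6 h.

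The nuclear-encoded subunits of the same respiratory chain fell in 13 of 75, with a median of -0.12 and 91.7% left. On the TMM scale 64 of the 75 rose, against 22.1% of all genes. The count that fell was 4 without 3 h replicate 1, 8 without 3 h replicate 2 and 5 without 6 h replicate 2. It was 7 with no filter on low counts, 6 in a fit of only the 6 siControl libraries and 23 in a fit of only the 4 libraries. UQCRFS1, the Rieske protein of complex III, fell by 0.48 ± 0.09. Mitochondrial ribosomal proteins, also encoded in the nucleus, fell in 63 of 76 (median -0.43), like the median gene, with MRPS30 at -1.23 ± 0.11.

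Noncoding RNAs varied widely. Genes annotated as lncRNA had a median of -0.44 and 349 of 1011 fell (34.5%, against 64.9% of all genes). As this median is near the -0.42 of all genes, the lower share called does not show smaller losses. NORAD, a long cytoplasmic RNA, went from 86.5 and 84.7 to 30.9 and 29.2 (-1.51 ± 0.09), while DANCR was at 49.97 and 50.2 at 3 h and 48.0 and 47.1 at 6 h and was not called. Hosts of small nucleolar RNAs fell in 9 of 21 (median -0.22), among them SNHG3 at -1.06 ± 0.14 and SNHG17 at -0.81 ± 0.14. SNHG8 was at 7.37 and 7.84 at 3 h and 8.15 and 7.74 at 6 h, not called. The same class had a median of -0.85 from 0 h to 3 h.

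Transcript structure was compared next, over the 11361 tested protein-coding genes with an annotated 3′ UTR in GENCODE v44 (GRCh38). The widest range of medians was that over exon number. Transcripts of 1 exon had a median of -0.87 (187 genes), those of 2 to 4 exons -0.53, of 5 to 9 exons -0.40 and of 10 or more -0.41. Of the 8 largest falls, CEBPA has 1 exon and NXT1, POP7 and TMEM115 have 2. Among the single-exon genes the lowest values, those of FJX1 (-2.88 ± 0.68) and KLLN (-2.87 ± 0.80), rest on few reads, and KLLN was not called without 3 h replicate 2.

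Longer 3′ UTRs went with larger losses. The medians were -0.32, -0.42, -0.45 and -0.48 from the shortest quartile (6 to 514 bases) to the longest (2727 to 32870 bases), and the share that fell was 57.0%, 69.4%, 74.4% and 79.0%. Genes with no ATTTA, the core of AU-rich elements, had a median of -0.34 and those with 4 or more had -0.47. As longer UTRs hold more of these pentamers, the 2 features overlap. Within the shortest quartile the median was -0.30 without and -0.37 with an ATTTA, and within the longest, where only 47 genes had none, -0.42 and -0.48. The share that fell in the longest quartile went the other way, at 85.1% without and 78.9% with an ATTTA. From 0 h to 3 h the medians over the length quartiles were -0.20, -0.38, -0.49 and -0.60. These are descriptions of groups of genes within the same 4 libraries.

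**Figure D4:**
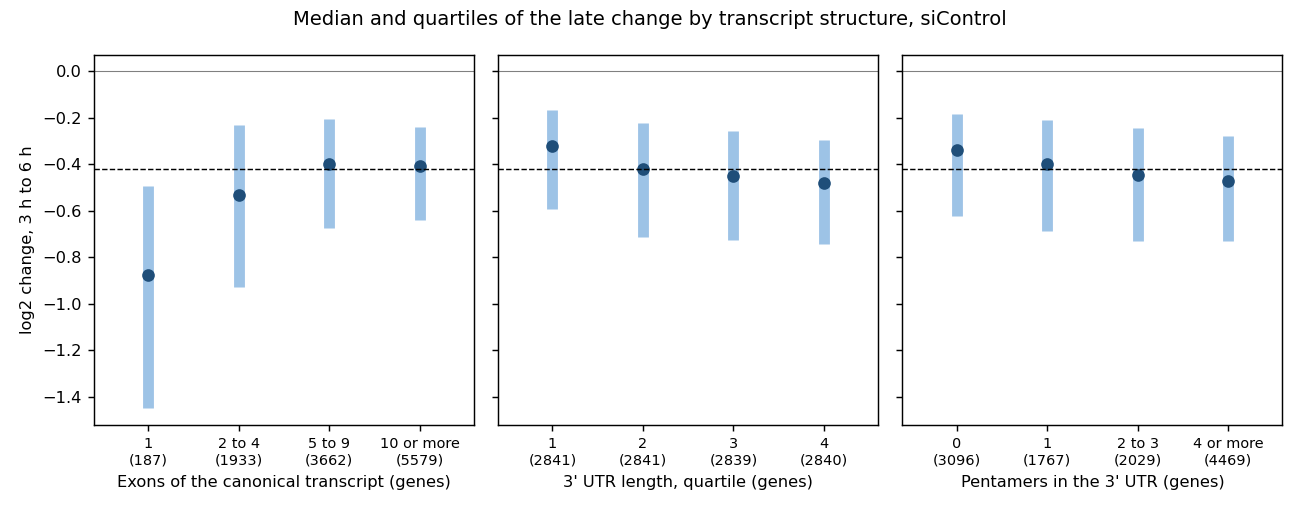
Median (points) and quartiles (bars) of the log2 change from 3 h to 6 h in siControl by exon number, by quartile of 3′ UTR length and by the number of ATTTA pentamers in the 3′ UTR, with genes per group in brackets. The dashed line is the median of all genes tested, -0.42. Single-exon genes stand lowest at -0.87, and the steps with 3′ UTR length and pentamers are smaller.

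The nonamer TTATTTATT, a fuller AU-rich element read on the transcript's own strand, contains ATTTA and occurs in 8.43% of all 19571 annotated canonical 3′ UTRs. Its 1068 tested holders had a median of -0.49 against -0.42 for the other 10293. The holders were not matched for 3′ UTR length, and the longest length quartile as a whole had -0.48. The sites below are those of 5 holders with large falls, chosen after their values were seen, with 1 of the 2 nonamers of FZD4 and the only one of each other gene, with 10 bases on each side and the nonamer in capitals:
B3GNT2: gcctgtgtttTTATTTATTgttcagatca
USP2: tctctcccttTTATTTATTctcttaacat
FZD4: gcaatgacatTTATTTATTaattcatgcc
RBM15B: ttaagcatgtTTATTTATTtgcctgtttt
HAMP: cctcccttccTTATTTATTcctgctgccc
The genome positions (GRCh38) are chr2:62224383-62224411 on the plus strand for B3GNT2, chr11:119355710-119355738 on the minus strand for USP2 and chr11:86949453-86949481 on the minus strand for FZD4. Those of RBM15B and HAMP are chr3:51395873-51395901 and chr19:35285067-35285095, both on the plus strand. All 5 lie in the 3′ UTR.

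B3GNT2, an enzyme that builds polylactosamine chains, went from 5.22 and 4.86 to 0.789 and 1.06 (-2.45 ± 0.15). USP2, a ubiquitin protease, went from 1.77 and 1.37 to 0.327 and 0.299 (-2.31 ± 0.23). FZD4, a Wnt receptor, went from 12.6 and 13.4 to 3.68 and 3.35 (-1.88 ± 0.11). RBM15B, of the m6A writer complex, fell by 1.76 ± 0.10, and HAMP, which encodes the iron hormone hepcidin, by 1.62 ± 0.23. HAMP holds its nonamer within a 3′ UTR of 101 bases. The motif is a description of these UTRs and no binding was measured.

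How late loss stood beside early loss was tested for each gene as the difference of the 2 changes, which share the 3 h libraries. The late loss was slower at an adjusted p under 0.05 for 1435 genes (10.9%) and faster for 216 (1.64%). Slower late loss was called in 214 of 399 ZNF-named genes, 13 of 23 hepatocyte transcription factors, 12 of 20 SMAD and TGF-beta genes, 10 of 21 small nucleolar RNA hosts, 8 of 13 MAP kinase inhibitors and 7 of 9 KLF factors. Faster late loss was called in 6 of 78 ribosome biogenesis factors, 6 of 50 mitosis genes and 5 of 33 proteasome subunits. With TMM scaling the counts were 1775 slower and 2388 faster, so the balance between slower and faster rests on the spike-in. Leaving out 1 library moved the faster calls between 38, without 3 h replicate 1, and 653, without 0 h replicate 1, and the slower calls between 955, without 3 h replicate 2, and 1606, without 0 h replicate 2.

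Among genes with a mean of at least 5 CPM, the largest slowing was called for 3 genes with little RNA left at 3 h. IER3 and FOS, below that limit, had larger differences of 5.92 ± 0.70 and 7.14 ± 1.97. ZNF503, a transcriptional corepressor, was at a mean of 15.4 at 0 h, 0.324 and 0.177 at 3 h and 0.193 and 0.238 at 6 h, so that its late change exceeded its early change by 5.80 ± 0.52. CITED2, a partner of the coactivator CBP, had 47.6 at 0 h, 0.544 and 0.662 at 3 h and 0.327 and 0.405 at 6 h (5.55 ± 0.36). DUSP6, given above, followed at 5.38 ± 0.36. At 3 h these 3 genes retained 1.27% to 1.86% of their 0 h levels. CITED2 still fell by 0.73 ± 0.24 in the late interval, a call lost without 3 h replicate 2 or 6 h replicate 1. In the knockdowns all 3 fell late, ZNF503 by 1.09, CITED2 by 0.73 and DUSP6 by 0.61. HSPA8 and FEN1 went the other way, their late changes being 1.01 ± 0.13 and 1.00 ± 0.16 below their early ones.

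NEAT1 had the largest shift toward late loss among genes with a mean of at least 5 CPM. This architectural RNA of paraspeckles stood at a mean of 94.5 at 0 h, 313 and 314 at 3 h and 220 and 210 at 6 h. It rose by 1.73 ± 0.08 in the early interval and fell by 0.54 ± 0.08 in the late one. The median late change of all genes was -0.42. The difference of its 2 changes was -2.28 ± 0.14 (adjusted p = 1.51e-58), most of it from the early rise. MT-RNR1, the small ribosomal RNA of mitochondria, went from 31.2 at 0 h to 64.4 and 64.0 at 3 h and 51.0 and 53.3 at 6 h. It is not an mRNA and was measured after poly(A) selection. SMN1 was also called, but its replicates differed, with 6.03 and 2.32 at 3 h and 5.63 and 2.24 at 6 h. SMN1 shares nearly all its sequence with SMN2, so its counts are uncertain. Its direction changed when 3 h replicate 1 was left out, and the call was also lost without 6 h replicate 2, with TMM or library-size scaling and with DESeq2 (adjusted p 0.141 to 0.525).

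To set late loss beside early loss without shared libraries, genes were grouped by their mean 0 h to 3 h change in the 3 knockdowns. In siControl, the 943 genes that had changed by less than -2 there had a median of -2.67 from 0 h to 3 h and of -0.89 from 3 h to 6 h. The 1994 genes between -2 and -1 had -1.43 and -0.83, and the 2748 genes between -1 and -0.5 had -0.74 and -0.63. For the 5706 genes between -0.5 and 0 the medians were -0.24 and -0.32, and for the 1745 genes at 0 or above 0.08 and -0.14. The order of the groups was the same in both intervals, with a narrower range in the late one.

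**Figure D5:**
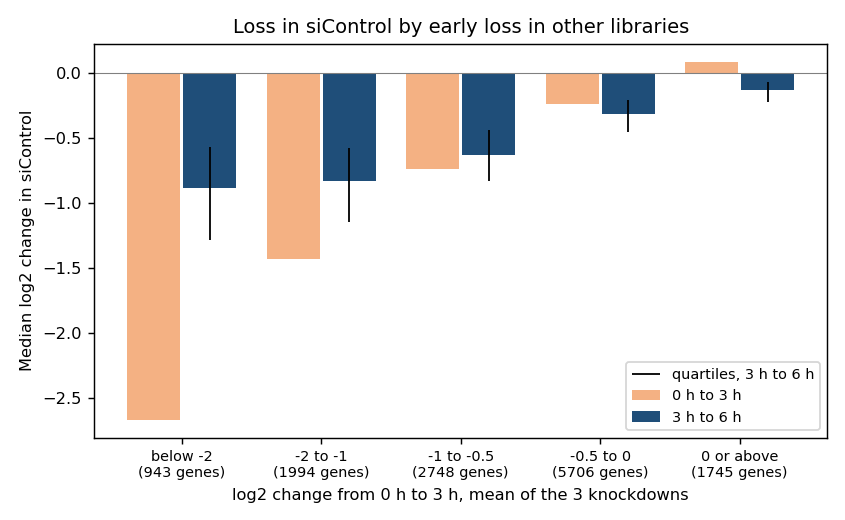
Median log2 change in siControl from 0 h to 3 h (orange bars) and from 3 h to 6 h (blue bars, with lines from the first to the third quartile) for genes grouped by their early change in the IGF2BP knockdown libraries. The group with the steepest early loss has medians of -2.67 and -0.89, and the group with none has 0.08 and -0.14.

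The same interval in the knockdown libraries gave a similar ranking, with smaller losses on the spike-in scale. The siIGF2BP2 libraries held 600 and 611 gene reads per ERCC read at 3 h and 535 and 616 at 6 h. The 6 h replicates were closer for siIGF2BP1, at 549 and 543, and for siIGF2BP3, at 612 and 575. Whether the smaller losses lie in the cells or in the scale was not tested. Over 13136 genes the late change in siControl and the mean late change of the 3 knockdowns had a Pearson correlation of 0.78, which is across genes that share libraries and the spike-in scale. In the knockdowns 7621 genes fell (58%) and 323 rose (2.46%). Of these falls, 6828 were shared with siControl, which is 80.1% of the siControl falls and 89.6% of those in the knockdowns. The median late change was -0.29 with siIGF2BP1, -0.21 with siIGF2BP2 and -0.26 with siIGF2BP3. The class medians in the knockdowns ran from -0.83 for the MAP kinase inhibitors, followed by -0.81 for both the SMAD and TGF-beta genes and the mitochondrially encoded mRNAs, to 0.11 for cytosolic ribosomal proteins.

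A difference between siControl and the knockdowns was called for 11 genes (0.0837%), all with a lower late change in siControl, while 2918 passed an unadjusted p of 0.05. The median difference over all genes was -0.17. With TMM scaling, which removes such a shift, edgeR called 0 genes (956 at an unadjusted p under 0.05), DESeq2 on the spike-in scale called 2, and with library-size scaling 1. Adding a term for replicate number within each condition raised the count to 99. Leaving out 1 siControl library gave 2 and 1 genes for the 3 h replicates 1 and 2, and 24 and 28 for the 6 h replicates 1 and 2.

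Rises were few and of low level. Of the 20, only 5 had a mean of at least 5 CPM, and all 5 are processed pseudogenes of ribosomal protein genes, whose reads cannot be assigned with certainty. In all 5, RPS3AP26, RPL17P6, RPL22P1, RPL23AP42 and RPL7P1, the value of 6 h replicate 2 was well above that of 6 h replicate 1. RPS3AP26, the only one whose 3 h and 6 h libraries did not overlap, had 9.21 and 9.48 at 3 h and 9.51 and 14.5 at 6 h (0.36 ± 0.12, adjusted p = 0.00364). Without 6 h replicate 2 its change was 0.02, and no rise of the 5 was called. H2BC8, a histone gene of 1 exon, changed by 2.15 ± 0.78 but from 0.0294 and 0.0355 to 0.101 and 0.202, after 0.546 at 0 h, and was not called without either 3 h library or 6 h replicate 2.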

How the data were processed

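RNA of the HepG2 cells was poly(A)-selected after spike-in, made into libraries with the SMARTer Stranded Total RNA-Seq Kit v2 and sequenced as single-end 100 bp reads. Per the labels and the study's methods, the authors trimmed reads with Trimmomatic 0.39, aligned them to hg38 with HISAT2 2.1.0 and deposited raw counts per gene made with HTSeq. Its settings for strand, overlaps and multiply mapped reads are not given in the sources used here, so genes that overlap or share sequence are uncertain. The count files hold 58721 gene rows, of which 45 for the Y copies of shared X and Y genes were left out, 92 ERCC rows and 5 rows that name no gene, which took 13.6% to 17.1% of a library and entered no total.

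Each library was scaled by its summed ERCC reads. Genes with at least 1 CPM in at least 2 libraries were tested with edgeR 4.0.16 (quasi-likelihood, R 4.3.3) in a fit of all 24 libraries with 12 residual degrees of freedom, and p-values were adjusted by Benjamini-Hochberg over all genes tested. The tests were 3 h against 6 h in siControl, that change minus the 0 h to 3 h change, and its difference from the mean of the knockdowns. The procedure was tested on simulated counts. Tables were made with Python 3.11.15, and gene positions, exons and 3′ UTRs come from GENCODE v44 on the same build.

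Genes named were the 8 largest falls and up to 5 largest rises. These needed an adjusted p under 0.05, a mean of at least 5 CPM and no overlap between 3 h and 6 h. Only 1 rise met this. The 3 largest late minus early differences each way had the same adjusted p and CPM limits. They also needed 3 h values that did not overlap those at 6 h or at 0 h. The 2 lowest and 2 highest changes of each class were named as well. The text gives a part of the class extremes, and members of small counts are named besides. The members and lists were chosen with earlier results of these data known. Alternatives were other scalings, filters, DESeq2 1.42.0, fewer libraries in the fit and a replicate block. Intervals and spreads cover 2 libraries a group. Some members of the lists are not reported here.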

Additional observations from a re-analysis of the deposited data

Results flagged for a closer look

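In 11 genes the 3 h to 6 h change differed between siControl and the mean of the knockdowns by edgeR's interaction test at an adjusted p under 0.05. Each was lower in siControl. The difference was -0.74 ± 0.16 (SE) for TDRD7, a Tudor domain protein of RNA granules, which was at 4.34 and 4.31 at 3 h and 1.63 and 2.095 at 6 h in siControl. It was -0.58 for BYSL, a ribosome biogenesis factor, -0.46 for EAPP, an E2F-associated protein, and -0.41 for MT-ATP8, whose reading frame overlaps that of its neighbour. The other 7 are processed pseudogenes that share reads with their parent genes, with differences of -1.93 for YBX1P1, -0.995 for RPL6P19, -0.83 for RPL13AP5, -0.64 for HNRNPA1P10, -0.64 for RPL29P4, -0.50 for RPL36AP37 and -0.46 for RPL23AP42. YBX1P1 stood at 5.69 and 24.1 in the 3 h libraries, a spread wider than its change. The median difference over all genes tested was -0.17 on the same scale.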

How the results depend on the processing

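On every scaling, filter and left-out library that was run, between 5940 and 8949 genes changed from 3 h to 6 h, against 8542, with 6360 to 8621 when 1 library was left out, and falls outnumbered rises in each. The direction of stable genes depends on the scale. The median change was -0.0048 with TMM scaling and -0.12 with library-size scaling, and the median half-life with library sizes was 9.77 h. Without 1 library these were -0.48 to -0.37 and 5.95 to 7.52 h, and the gene reads per ERCC read left at 6 h were 78.7% to 84.4%.

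The replicate block gave 8949 changed genes and moved no call of the genes named. It raised the count that fell from 13 to 21 nuclear-encoded respiratory chain subunits and from 3 to 6 cytosolic ribosomal proteins. The labels do not say whether equal replicate numbers mark paired samples. Deviations of equal numbers correlated at 0.034 between 3 h and 6 h, which shows little shared deviation but cannot settle the pairing. Genes whose late and early changes differed numbered 4163 with TMM and 3311 with library-size scaling, and 1018 to 1879 without 1 library, against 1651. The 11 genes that differed from the knockdowns became 0 with TMM, 1 with library-size scaling, 5 with median ERCC ratios, 2 with DESeq2, 7 with no filter, 99 with the replicate block and 1 to 28 without 1 library. The causes were not tested.

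With TMM scaling the change turned positive for PPARA (0.083), HNF4A (0.21), CCNC (0.38), LSM4 (0.31), HNRNPA2B1 (0.32), PABPC1 (0.37), SEM1 (0.37), HSP90B1 (0.31), ATF4 (0.23), SCD (0.34), LCAT (0.015), APOA2 (0.40), RPA3 (0.39), MAD2L1 (0.28), TUBA1B (0.19), DANCR (0.34), MT-RNR1 (0.12), APOB (0.23), RPL7A (0.23) and RPL4 (0.20). With library-size scaling it did for HNF4A (0.087), CCNC (0.25), LSM4 (0.19), HNRNPA2B1 (0.19), PABPC1 (0.25), SEM1 (0.25), HSP90B1 (0.19), ATF4 (0.11), SCD (0.22), APOA2 (0.28), RPA3 (0.27), MAD2L1 (0.16), TUBA1B (0.066), DANCR (0.22), APOB (0.11), RPL7A (0.11) and RPL4 (0.076). Without 1 library, in turn, RPL17P6 lay between -0.10 and 0.73, RPL22P1 between -0.37 and 0.85 and RPL7P1 between -0.037 and 0.56, each lowest without 6 h replicate 2. SMN1 lay between -0.88 and 0.76, and its late minus early difference between -2.32 and 0.44, highest without 3 h replicate 1. With 2 libraries a time, calls were lost without 1 library at small changes, as for APOB (-0.19), and at larger ones, as for LCAT (-0.40), MASP1 (-0.54) and BBC3 (-1.40).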
